A study of Rattus norvegicus with 12 samples.

Results

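The 4 prefrontal cortex samples of young female rats exposed to betamethasone before birth and to ketamine on postnatal day 14 were compared with the 4 samples of rats given saline both times. These 8 of the 12 samples of the series were chosen by their labelled treatment, and not by any measured value. All animals were female Sprague-Dawley rats, an outbred laboratory stock. On gestational day 15, dams of the exposed group were injected 2 times with betamethasone, 0.4 mg/kg at each injection, and dams of the control group received saline. Litters were culled to 4 females. The pups of the exposed group were given ketamine (35 mg/kg) on postnatal day 14, and those of the control group saline. Tissue was taken on postnatal day 15 according to the sample descriptions, although a separate stage field reads P145. The treatment text ties the postnatal injection to rats with infantile spasms, without saying which animals had them. The exposed group therefore differs from control by both drugs, and possibly by the seizures. A group given betamethasone and then saline (n = 4) shared the statistical model, and none of the 12 samples had ketamine without betamethasone. The labels name the replicates as separate samples but give no litter, so a litter effect cannot be told apart from treatment.

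Betamethasone is a synthetic glucocorticoid that crosses the placenta, binds the glucocorticoid receptor and changes transcription in the fetal brain. In rats, prenatal exposure to it makes the pups more prone to developmental spasms, which is why it is used in models of infantile spasms. Ketamine blocks the open channel of NMDA-type glutamate receptors. In the cortex it can raise the firing of pyramidal cells by silencing interneurons, and it is known to act on eEF2 kinase and mTOR signalling and on immediate early genes, which are transcribed within minutes of neuronal activity.

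RNA was measured on 2-colour oligonucleotide arrays, 2 animals of the same group per array. Replicates 1 and 3 carried Cy3, and replicates 2 and 4 carried Cy5. One slide held the 2 control arrays and another the 2 arrays of the exposed group, so slide and treatment cannot be told apart in this comparison. The array headers give a spike-in log-ratio slope of 0.492 and 0.542 for the control arrays and of 0.874 and 0.88 for those of the exposed group, and its part in the results was not tested. The array of exposed replicates 1 and 2 stood apart. On the first principal component (43.3% of the variance) these samples lay at 54.1 and 52.2, and the other 10 samples of the series lay between -20.1 and -6.8. Damaged areas, where neighbouring spots departed together from the other arrays, held 5.31% of its spots and 0.0117% to 1.45% of those of the other arrays. Of the spots of each sample, 71.4% to 81.5% were well above background, and none was saturated. All 25 tested excitatory cortical neuron and layer markers of 29 listed were well above background in all 8 samples.

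Between the groups, 17 features passed the threshold in the fit of all 12 samples, and the 7 with a gene symbol each stand in a different gene list. For none of them can slide and treatment be told apart. The lists were chosen with earlier results of these data known, so the spread of the 7 over them is not a result. Ccng1, Glo1, Coq7 and Rgs12 rose, and Chmp4bl1, Fbxo10 and Mefv fell. Of 18678 genes tested with limma (Benjamini-Hochberg adjusted p under 0.05), 11 were higher (0.0589%) and 6 lower (0.0321%), together 0.091% of the genes. At an unadjusted p under 0.05 there were 1818 higher (9.73%) and 814 lower (4.36%). The 4 exposed values all lay above the 4 control values for 2253 genes (12.1%) and all below for 695 (3.72%). Of all genes, 63.8% had a positive change, and the median log2 change was 0.07. The counts of higher members in the lists below stand beside that share. Without the array of exposed replicates 1 and 2 the count became 50 higher and 51 lower, and without that of replicates 3 and 4 it became 1963 higher and 1135 lower. Without the array of control replicates 1 and 2 it became 113 higher and 91 lower, and without that of control replicates 3 and 4, 250 higher and 103 lower. Without a betamethasone array it became 4 (replicates 1 and 2) or 3 (replicates 3 and 4), and without a single sample 5 to 27. Scaling on the 75th percentile left 0 past the threshold (146 at an unadjusted p under 0.05 in limma), the means of the arrays left 1, and a fit of only the 8 samples left 2. The 17 features all passed when either exposed array was left out.

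Ccng1 encodes cyclin G1, a transcriptional target of p53. Its probe lay on chromosome 10 (rn4, 25778638 to 25778912, an interval longer than the 60-letter probe). It was the only probe tested for the gene, and its sequence is shown because the largest rise of a named gene rests on it:

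Ccng1: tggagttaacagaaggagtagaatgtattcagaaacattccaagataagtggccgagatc

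The normalised log2 intensity of Ccng1 was 9.45, 9.39, 9.51 and 9.35 in control replicates 1 to 4, and 11.94, 12.69, 12.29 and 12.37 in exposed replicates 1 to 4. Every exposed sample lay more than 2 log2 units above every control sample. Ccng1 rose 7.43-fold (log2 change 2.89, SE 0.22, limma adjusted p = 0.000394), and it passed in all 12 fits that left out 1 sample.

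Glo1, the glyoxalase that detoxifies methylglyoxal made during glycolysis, was at 12.49, 12.35, 12.58 and 12.31 in control and at 13.36, 13.16, 13.28 and 13.08 after both drugs (chromosome 20, rn4, 8901397 to 8901456). The groups did not overlap, and Glo1 rose by 0.79 on the log2 scale (SE 0.09, limma adjusted p = 0.0161). Coq7, a hydroxylase of ubiquinone synthesis in mitochondria, had control values of 9.84, 9.64, 10.04 and 9.95 (chromosome 1, rn4, 176745135 to 176746315). Its exposed values were 10.61, 10.6, 10.57 and 10.49, all above control and close to each other. Coq7 rose by 0.70 (SE 0.10, limma adjusted p = 0.0335). Rgs12, a regulator that ends G-protein signalling by speeding GTP hydrolysis, was at 12.96, 12.88, 13.01 and 12.87 in control (chromosome 14, rn4, 81363544 to 81363603). It was at 13.55, 13.45, 13.5 and 13.51 in the exposed samples and rose by 0.57 (SE 0.08, limma adjusted p = 0.0327), with no overlap.

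Among the genes that fell, Mefv encodes pyrin, an inflammasome sensor of innate immune cells. It was at 8.62, 8.88, 8.78 and 8.81 in control and at 7.79, 7.77, 7.84 and 7.75 in the exposed samples (chromosome 10, rn4, 12069231 to 12069290). It fell by 0.98 on the log2 scale (SE 0.12, limma adjusted p = 0.0171), with the 4 exposed values close together. Fbxo10, a substrate-binding subunit of an SCF ubiquitin ligase, was at 10.49, 10.9, 10.77 and 10.81 in control and at 9.62, 9.89, 9.28 and 9.68 after both drugs (chromosome 5, rn4, 61600111 to 61600170). It fell by 1.13 (SE 0.17, limma adjusted p = 0.0425), and the groups were apart. Chmp4bl1, named after the ESCRT-III membrane-remodelling protein CHMP4B, had no value in control replicate 1, and the other controls were at 12.62, 13.18 and 13.33 (chromosome 4, rn4, 562938 to 562997). The exposed samples were at 11.25, 11.36, 11.1 and 10.8, and Chmp4bl1 fell by 1.87 (SE 0.22, limma adjusted p = 0.0171). Copies of one gene can share signal on such an array, and Chmp4bl1 and Chmp4b-type transcripts were not told apart. Of the 12 fits that left out 1 sample, Glo1 passed in 11, Mefv in 9, Coq7 and Rgs12 in 3 each and Fbxo10 in 2. Chmp4bl1 passed in 6 of the 9 such fits in which it could be tested.

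**Figure D1:**
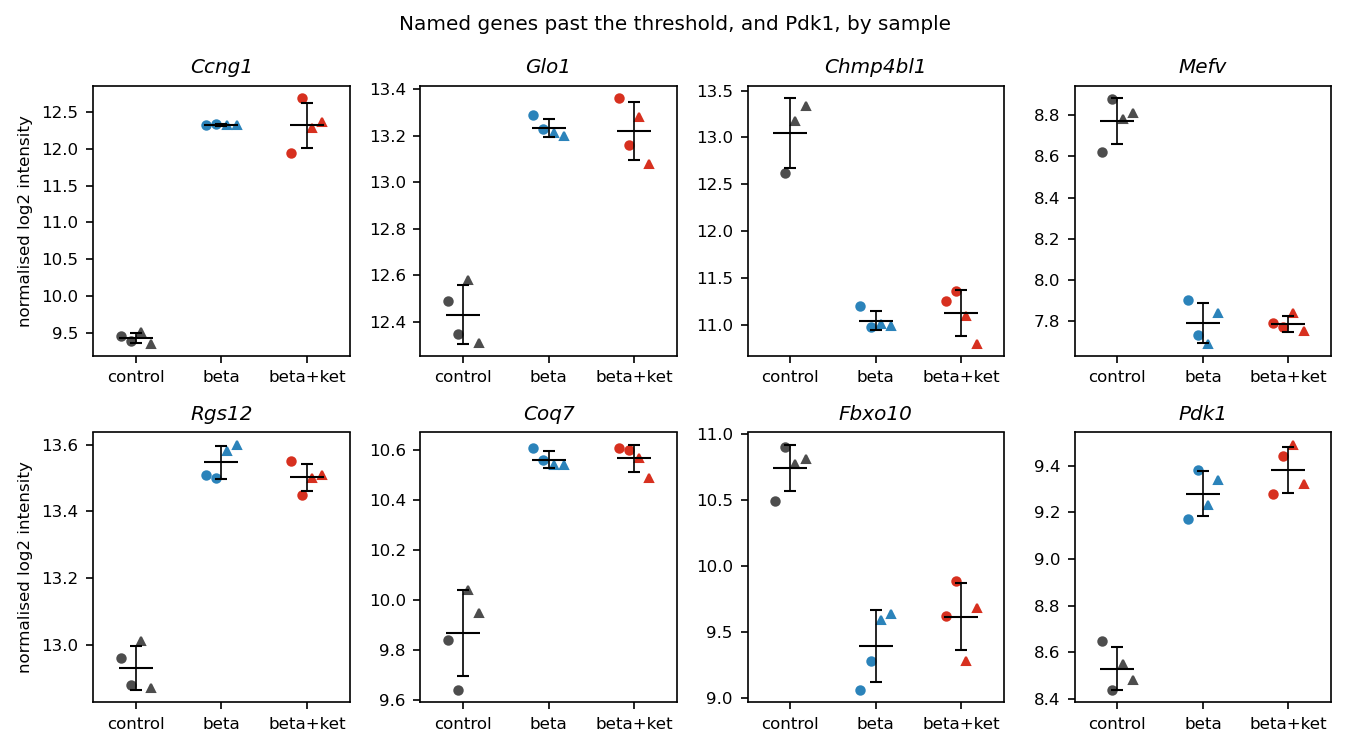
Normalised log2 intensity of the 7 named genes past the threshold and of Pdk1 in each animal of the control, betamethasone and betamethasone with ketamine groups (circles, replicates 1 and 2; triangles, replicates 3 and 4; black bars, mean ± SD). In each panel the 4 samples of the betamethasone with ketamine group lie on one side of all control samples and near the betamethasone group.

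Just outside the threshold lay Pdk1 and Cyp11b1, both with an adjusted p of 0.0604 in limma. Pdk1, the kinase that shuts off pyruvate dehydrogenase, was at 8.65, 8.44, 8.55 and 8.48 in control and at 9.28, 9.44, 9.49 and 9.32 in the exposed samples (log2 change 0.85, SE 0.13). Cyp11b1, the enzyme that completes corticosteroid synthesis in the adrenal, was at 9.59, 9.35, 9.23 and 9.14 in control and at 10.18, 10.13, 10.03 and 10.01 in the exposed samples (0.76, SE 0.12). In both genes the groups did not overlap. Betamethasone minus control was 0.75 for Pdk1 (SE 0.13) and 0.72 for Cyp11b1 (SE 0.12, limma adjusted p = 0.045). Betamethasone with ketamine minus betamethasone was 0.10 for Pdk1 (SE 0.13) and 0.04 for Cyp11b1 (SE 0.12).

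The 7 named genes had similar levels in the group given betamethasone and then saline. The mean of that group was 12.33 ± 0.01 (SD, n = 4) for Ccng1, 13.23 ± 0.04 for Glo1, 10.56 ± 0.04 for Coq7 and 13.55 ± 0.05 for Rgs12. It was 7.79 ± 0.10 for Mefv, 9.39 ± 0.27 for Fbxo10 and 11.05 ± 0.10 for Chmp4bl1. The difference between betamethasone with ketamine and betamethasone compares 2 groups on the same slide, neither of them the control. Its SE and p came from the fit of all 12 samples, controls included. This difference was -0.01 for Ccng1 (SE 0.22) and -0.01 for Glo1 (SE 0.09). It was 0.01 for Coq7 (SE 0.10), -0.05 for Rgs12 (SE 0.08), 0.23 for Fbxo10 (SE 0.17) and 0.08 for Chmp4bl1 (SE 0.21). No gene passed in that contrast in limma (0 of 18678, smallest adjusted p 0.193), and 603 had an unadjusted p under 0.05 (3.23%). A median standard error of 0.146 for a change from control corresponds to an unadjusted 95% half-width of 0.322, and at that error a call after adjustment needed a larger change.

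The other 10 features that passed carry no gene symbol, and they are described here after their values were seen. Of these, 4 rose and share a stretch of sequence like that of HMGB1. HMGB1 is an abundant chromatin protein that bends DNA and acts as an alarm signal once outside the cell, and the rat genome holds many processed copies of its gene. A stretch of 22 letters, GTGATGTTNCAAAGAAACNAGG, occurred in 5 of the 30367 probes on the strand printed on the array and in 0 on the other strand. All 5 were tested. The stretch was taken from the probes of the 4 features that passed, with N where these differ. These 4 therefore hold it by construction, and only the fifth was found by the search. The stretch is in capitals below, because all 5 probes could bind the same transcripts:

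LOC690521: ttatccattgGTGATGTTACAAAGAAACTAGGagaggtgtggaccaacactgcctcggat

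ENSRNOT00000046984: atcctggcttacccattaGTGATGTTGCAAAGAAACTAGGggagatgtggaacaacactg

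A_64_P123549: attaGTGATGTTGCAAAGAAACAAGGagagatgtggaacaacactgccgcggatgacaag

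ENSRNOT00000051642: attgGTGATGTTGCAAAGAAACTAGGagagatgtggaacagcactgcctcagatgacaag

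Hmgb1-ps33: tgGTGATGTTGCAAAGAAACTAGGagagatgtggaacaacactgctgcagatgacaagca

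LOC690521 (chromosome 3, rn4, 144762915 to 144762974) was at 10.52, 10.51, 10.35 and 10.18 in control and at 11.28, 11.22, 11.4 and 11.3 in the exposed samples. It rose by 0.91 (SE 0.10, limma adjusted p = 0.0135). ENSRNOT00000046984 (chromosome 16, rn4, 28508823 to 28508882) rose by 1.01 (SE 0.12, limma adjusted p = 0.0135), from 11.31 to 11.77 in control to between 12.47 and 12.73. The features of the remaining passing pair, A_64_P123549 (chromosome 1, rn4, 16798969 to 16799028) and ENSRNOT00000051642 (chromosome 3, rn4, 76240184 to 76240243), rose by 0.98 and 0.96. The fifth, a probe named for the HMGB1 pseudogene Hmgb1-ps33, was at 12.59, 12.86, 12.76 and 12.69 in control and at 13.54, 13.53, 13.28 and 13.28 in the exposed samples. Its groups did not overlap either (0.68, SE 0.13, limma adjusted p = 0.111 over all probes). Betamethasone with ketamine minus betamethasone was 0.01 for LOC690521 (SE 0.10), 0.03 for ENSRNOT00000046984 (SE 0.12) and 0.18 for A_64_P123549 (SE 0.13). It was 0.10 for ENSRNOT00000051642 (SE 0.13) and -0.02 for the Hmgb1-ps33 probe with the stretch (SE 0.13).

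None of the 3 probes of Hmgb1 itself holds the stretch. One was higher, at 0.40 (SE 0.18, unadjusted p = 0.0489 in limma), and the others were at -0.12 (SE 0.21) and -0.07 (SE 0.25), and all 3 had overlapping groups. The difference between these probes and those with the stretch was not tested. A further probe of Hmgb1-ps33 without the stretch was at -0.24 (SE 0.27). Which of the near-identical copies gave the signal cannot be told apart with these probes.

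**Figure D2:**
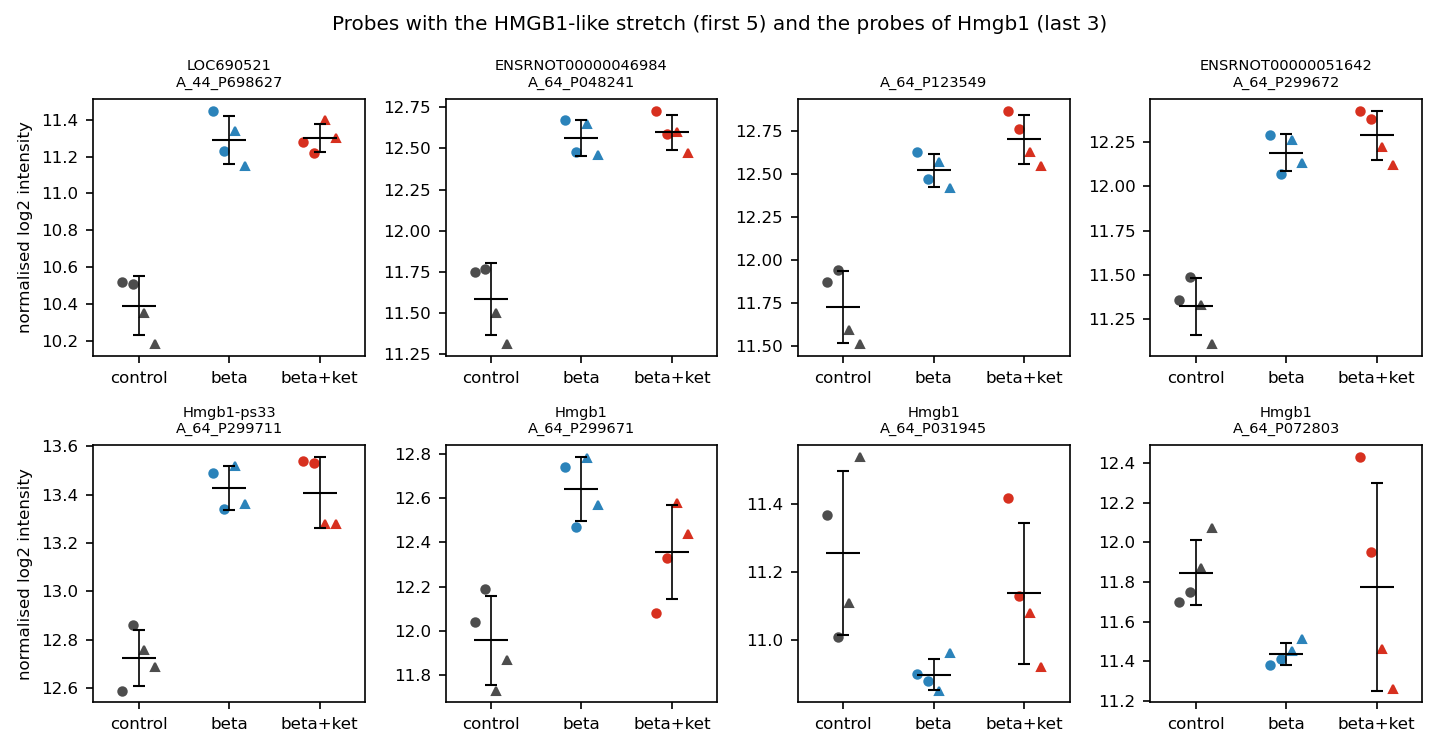
Normalised log2 intensity by animal for the 5 probes with the HMGB1-like stretch and the 3 probes of Hmgb1 (circles, replicates 1 and 2; triangles, replicates 3 and 4; black bars, mean ± SD). In the first 5 panels the betamethasone with ketamine samples lie above all control samples, and in the last 3 the 2 groups overlap.

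The other unnamed features that passed were split between directions. A_64_P010860 was at 10.41, 10.45, 10.49 and 10.66 in control and at 8.16, 8.18, 8.4 and 8.43 in the exposed samples, and fell by 2.21 (SE 0.12, limma adjusted p = 3.59e-05), the smallest p of the comparison. A_64_P150585 on chromosome 13 (rn4, 108868563 to 108868622) fell by 1.27 (SE 0.08, limma adjusted p = 0.000116), with a control mean of 10.16 ± 0.04 and an exposed mean of 8.89 ± 0.06 (SD, n = 4 each). ENSRNOT00000052393 was at 12.74, 12.02, 12.96 and 12.98 in control and at 8.62, 8.56, 10.54 and 10.01 in the exposed samples. It fell by 3.24 (SE 0.43, limma adjusted p = 0.0205), but its spots on the array of exposed replicates 1 and 2 lay in a damaged area. It passed in 5 of the 12 fits that left out 1 sample. A_64_P105254 rose by 1.15, ENSRNOT00000035711 by 0.85, and LOC367154, described in the array file as like a proteasome beta subunit, by 0.78. Differences from the betamethasone group were -0.12 for A_64_P010860 (SE 0.12), 0.04 for A_64_P150585 (SE 0.08) and -0.86 for ENSRNOT00000052393 (SE 0.43). They were 0.23 for A_64_P105254 (SE 0.15), 0.07 for ENSRNOT00000035711 (SE 0.11) and 0.19 for LOC367154 (SE 0.12).

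Beyond the threshold, 367 genes with a symbol had an unadjusted p under 0.01, groups that did not overlap, all 8 samples well above background and no spot in a damaged area. Of these, 317 were higher and 50 lower. The 10 with the largest change in each direction are named here, and except for Ccng1, Fbxo10 and Mefv they did not pass, with limma adjusted p from 0.0741 to 0.269. Junb, an AP-1 transcription factor of the immediate early class, was at 11.08, 11.22, 12.2 and 12.27 in control and at 13.6, 13.44, 12.53 and 12.72 in the exposed samples (log2 change 1.38, SE 0.33). Its values grouped by array in both groups. Cap1, a regulator of actin turnover, was at 8.87, 9.05, 9.3 and 9.9 in control and at 10.51, 10.79, 10.27 and 10.32 in the exposed samples (1.19, SE 0.22). Mrpl50, a mitochondrial ribosomal protein gene, was at 1.00 (SE 0.29), and its control values split by array, 8.02 and 8.02 against 9.34 and 9.11. Mrpl50 had 2 probes, and these values are of the brighter.

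Of the lower genes, Ptprv, a receptor-type phosphatase gene, was at 12.21, 11.72, 12.7 and 12.16 in control and at 11.15, 10.92, 10.62 and 10.01 in the exposed samples (log2 change -1.52, SE 0.29). Its difference from the betamethasone group, -0.94, was the largest among these 20 genes and did not pass. Taldo1, transaldolase of the pentose phosphate pathway, was at -1.0 (SE 0.22), with exposed values of 12.6, 13.0, 11.82 and 12.11. A2m, the broad protease inhibitor alpha-2-macroglobulin, was at 9.6, 9.59, 9.47 and 8.99 in control and at 8.36, 8.41, 8.43 and 8.48 in the exposed samples (-0.99, SE 0.18, limma adjusted p = 0.088). Dhx9, an RNA helicase gene, was at 10.34, 10.58, 10.63 and 10.64 in control and at 9.64, 9.67, 9.88 and 9.54 in the exposed samples (-0.87, SE 0.15, limma adjusted p = 0.0741). Pdyn, which encodes the precursor of the dynorphin opioid peptides, was at 8.9 and 8.94 in exposed replicates 1 and 2 and at 9.75 and 9.74 in replicates 3 and 4, below every control value (-0.87, SE 0.21). The remaining lower genes were the chromatin chaperone gene Npm3 (-0.89), the ubiquitin ligase gene Rnf126 (-0.88) and Setd5 (-0.86). Against the betamethasone group, A2m was at -0.09 (SE 0.18), Dhx9 at 0.08 (SE 0.15), Pdyn at -0.41 (SE 0.21) and Taldo1 at -0.66 (SE 0.22).

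**Figure D3:**
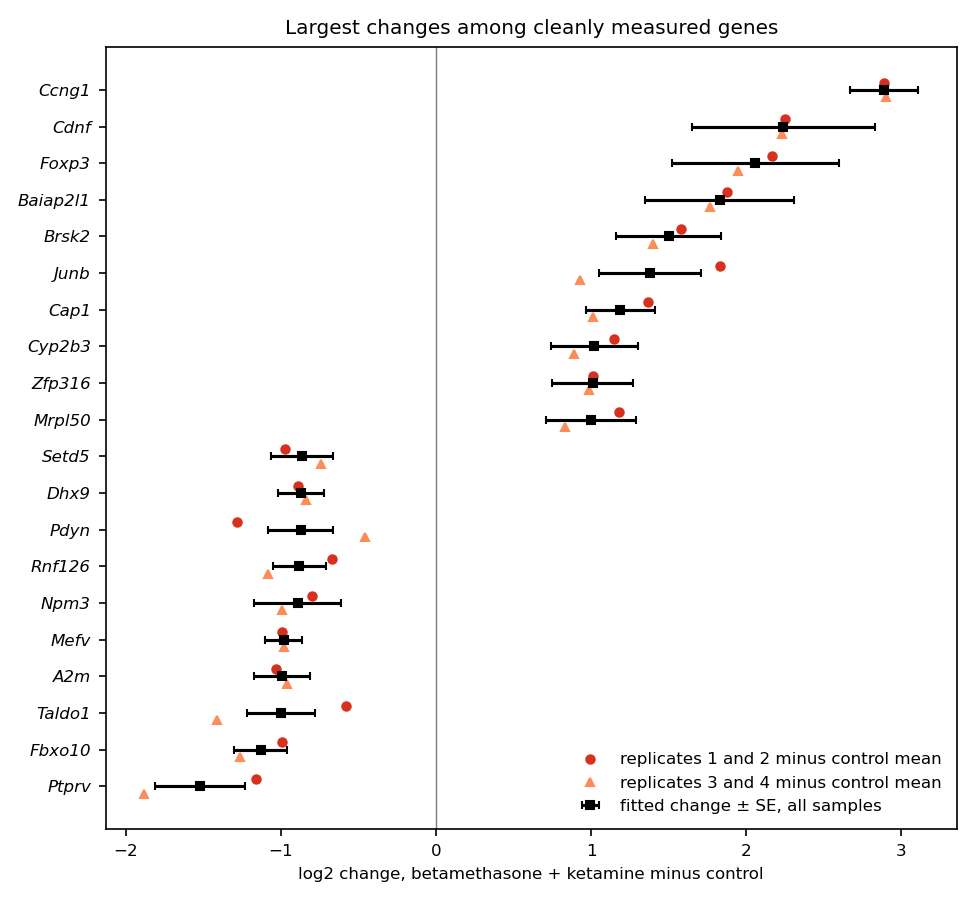
Fitted log2 change ± SE (squares) of the 20 genes with the largest changes among those with an unadjusted p under 0.01, groups apart, all samples well above background and no spot in a damaged area. Circles and triangles give the mean of exposed replicates 1 and 2 and of replicates 3 and 4 minus the control mean. Both arrays lie on the same side of 0 for every gene, with the widest gaps for Junb, Pdyn and Taldo1.

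Among the 10 higher genes, Cdnf, Foxp3, Baiap2l1 and Brsk2, shared one profile across the samples. Cdnf encodes a neurotrophic factor of the endoplasmic reticulum, Foxp3 the master regulator of regulatory T cells, Baiap2l1 an actin-bundling adaptor and Brsk2 a kinase of neuronal polarity. Foxp3 was at 9.14, 8.98, 10.67 and 8.89 in control and at 11.37, 11.81, 11.9 and 10.83 in the exposed samples (log2 change 2.06, SE 0.54). In all 4 genes control replicate 3 was the highest control and exposed replicate 4 the lowest exposed sample. The changes were 2.24 for Cdnf (SE 0.59), 1.83 for Baiap2l1 (SE 0.48) and 1.5 for Brsk2 (SE 0.34), and limma adjusted p was from 0.16 to 0.197. The probes of Foxp3, Brsk2 and Baiap2l1 share the letters GCCCCAG, in capitals below, a likeness noticed after the values were seen:

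Foxp3: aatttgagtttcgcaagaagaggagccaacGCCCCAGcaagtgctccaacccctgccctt

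Brsk2: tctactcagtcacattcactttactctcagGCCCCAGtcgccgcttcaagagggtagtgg

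Baiap2l1: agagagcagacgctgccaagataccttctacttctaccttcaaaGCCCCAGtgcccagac

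Of the probes tested, 111 held these letters on the printed strand, and 11 of them (9.91%) had a log2 change above 1, against 70 of the other 21422 (0.327%) and 0.376% of all probes tested. Foxp3, Brsk2 and Baiap2l1, in which the letters were noticed, are among the 11, so this share is in part fixed by that choice. Among the 109 probes that held the letters on the other strand, 0 had such a change, and their median was 0.07. The median change of the 111 was 0.17, and that of the probes without the letters was 0.07. Against betamethasone alone, the 111 had a median of 0.04, and the probes without the letters 0.05. Cyp2b3 (1.02) and Zfp316 (1.01), also among the 10 higher genes, hold the letters too, so that 5 of these 10 genes do. The probe of Cdnf does not hold them. Baiap2l1 and Zfp316 had 2 probes each, and the changes given are of the brighter. Whether the letters have a part in these values was not tested. Of all 30367 probes, 0.405% hold the letters.

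Genes with several probes were looked at for a direction shared within a gene. Unrelated probes can share it too, since 63.8% of all genes had a positive change. The share below therefore does not show that probes of one gene agree more than unrelated ones, and an excess was not tested. Of 2387 such genes, 1270 (53.2%) had all probes on one side of 0, and 44 (1.84%) had all at an unadjusted p under 0.05 in one direction, 35 higher (1.47%) and 9 lower (0.377%). Fam111a, a DNA replication factor gene, had probes at 1.37 and 0.95 that overlap in position. Its control replicate 2 was low at both probes, 7.44 and 7.5, against 8.35 to 8.62 in the other controls. A2m had probes at -0.99 and -0.85, and both separated the groups. S100b, the calcium-binding protein of astrocytes, had probes at 0.52 and 0.67. Dusp14, a phosphatase of MAP kinases, had probes at 0.51 and 0.55, with all exposed samples above control at both. Bicd2 (0.73 and 0.87), a dynein adaptor gene, Kcne5 (0.63 and 0.63), a potassium channel subunit gene, and Nlrx1 (0.48 and 0.58), a mitochondrial innate immune regulator gene, were higher by similar amounts at both probes. The probes of Smim20 (0.57 and 1.64) and Ankrd28 (0.5 and 0.99) differed more. Those of Bicd2 overlap in position as those of Fam111a do, so for these genes the probes are not separate checks. The 18S ribosomal RNA gene Rn18s had probes at 0.87 and 0.77 with overlapping groups.

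Immediate early genes were mostly higher, as were 63.8% of all genes. Of 49 tested members of 51 listed, 38 were higher and 11 lower, 0 passed, and the median log2 change was 0.21 against 0.07 over all genes. The groups did not overlap for 15 higher members (30.6%) and for 1 lower member (2.04%), against 12.1% and 3.72% of all genes. Arc, which controls AMPA receptor endocytosis at active synapses, was at 11.93, 11.65, 11.58 and 11.89 in control and at 13.36, 13.06, 12.64 and 12.61 in the exposed samples. Its log2 change was 1.16 (SE 0.22, limma adjusted p = 0.102), and some of its spots lay in damaged areas of the arrays of control replicates 3 and 4 and of exposed replicates 1 and 2. Nr4a1, an orphan nuclear receptor gene, was at 12.14, 12.17, 12.03 and 12.49 in control and at 13.05, 12.99, 13.01 and 13.08 in the exposed samples (0.82, SE 0.16, limma adjusted p = 0.105). Nr4a1 was even over both exposed arrays, but it had a spot in a damaged area of the array of exposed replicates 1 and 2.

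The AP-1 subunit genes differed more between the exposed arrays. Fos was at 8.63, 8.66, 8.6 and 8.62 in control and at 10.1, 9.91, 9.12 and 9.26 in the exposed samples (log2 change 0.97, SE 0.26, limma adjusted p = 0.213). Jun was at 10.12, 10.08 and 10.03 in the 3 controls with a value and at 11.11, 10.86, 10.53 and 10.52 in the exposed samples (0.70, SE 0.16). Jund went the other way on one array only, with 12.76 and 12.89 in exposed replicates 1 and 2, whose spots lay in a damaged area, and 14.31 and 14.06 in replicates 3 and 4, against 13.99 to 14.53 in control. Ier2, an early growth-response regulator gene, was at 11.22, 11.21, 10.87 and 11.06 in control and at 11.74, 11.62, 11.58 and 11.55 in the exposed samples (0.53, SE 0.14), with a spot in a damaged area of the array of control replicates 3 and 4. Dusp1, which inactivates MAP kinases, was at 0.68 (SE 0.22).

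Of the 49 members, 39 (79.6%) were higher in exposed replicates 1 and 2 than in replicates 3 and 4, against 64.0% of all genes. The median over the control mean was 0.26 on the first array and 0.12 on the second, and over all genes it was 0.12 and 0.03. Without the array of replicates 1 and 2 the list's median was 0.12, with 31 of 49 members higher, and the median of all genes was 0.03. Without that of replicates 3 and 4 it was 0.26, with 41 higher and 14 past the threshold, in a fit where 16.6% of all genes passed and their median was 0.11. With damaged areas left out, 37 of the 45 members still tested were higher. Set against betamethasone alone, the median of the members was 0.14. In that contrast the 21422 tested probes without the letters GCCCCAG had a median of 0.05. It was 0.25 for Arc (SE 0.22), 0.16 for Nr4a1 (SE 0.16), 0.27 for Jun (SE 0.16) and 0.52 for Junb (SE 0.33). Betamethasone minus control gave the members a median of 0.07, with Arc at 0.91, Nr4a1 at 0.66, Jun at 0.43 and Junb at 0.86.

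**Figure D4:**
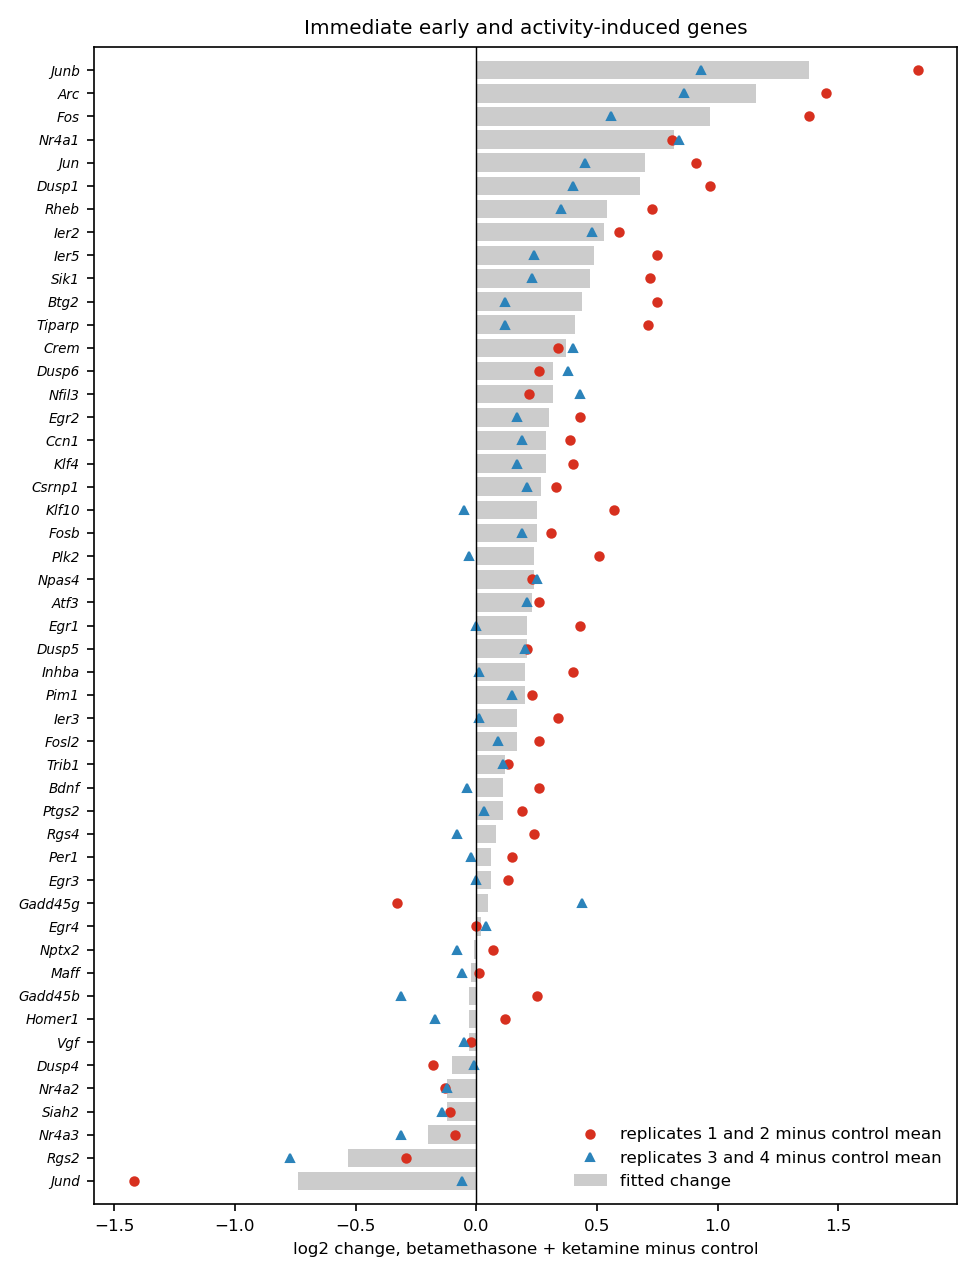
Log2 change of the 49 immediate early and activity-induced genes tested, betamethasone with ketamine minus control (bars, fitted change). Circles and triangles give exposed replicates 1 and 2 and replicates 3 and 4 minus the control mean. For 39 of the genes the circle lies to the right of the triangle, and Junb, Arc, Fos and Nr4a1 have the largest fitted changes.

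Many immediate early genes are switched on through the cyclic AMP response element, TGACGTCA, bound by CREB. This palindrome was searched in promoters of 300 bases (250 before and 50 after the start, RefSeq, GRCr8). It occurred in 7 of the 38 members with a promoter in the table and in 1.83% of all 33469 promoters. Of the 7, 3 are shown as 40 bases around the element, in capitals, because Ier2 and Dusp1 had all exposed samples above control while Jund did not. The match describes the letters only.

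Ier2, chr19:40399291-40399330, plus strand: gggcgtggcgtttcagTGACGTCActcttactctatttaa

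Dusp1, chr10:17184713-17184752, plus strand: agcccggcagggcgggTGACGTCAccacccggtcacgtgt

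Jund, chr16:18769969-18770008, minus strand: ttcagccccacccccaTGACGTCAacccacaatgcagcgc

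The first base of the element lay at position -66 from the start of Ier2, -124 from that of Dusp1 and -221 from that of Jund. The other 4 genes with it, Plk2 (log2 change 0.24), Btg2 (0.44), Maff (-0.02) and Vgf (-0.03), had overlapping groups.

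Of 31 tested genes that glucocorticoids induce, 18 were higher and 13 lower, 0 passed, and the median was 0.05. The groups did not overlap for 4 higher members (12.9%) and 5 lower ones (16.1%), against 12.1% and 3.72% of all genes. Of the 5 lower members, Irs2, Cebpb, Per2 and Tsc22d1 had a spot in a damaged area of the array of exposed replicates 1 and 2, and Rgs2 (-0.53, SE 0.20) had none. Nfkbia, the inhibitor of NF-kappaB, was at 10.25, 10.23, 10.29 and 10.59 in control and at 10.88, 10.81, 10.96 and 10.81 in the exposed samples (log2 change 0.53, SE 0.15). Per2, a clock gene with a glucocorticoid response element, was at -0.44 (SE 0.16). Fkbp5, a co-chaperone that restrains the receptor, was at 9.87 and 10.02 in exposed replicates 1 and 2 and at 10.76 and 10.8 in replicates 3 and 4, against 10.69 to 10.9 in control. Its spots lay in a damaged area on the first of these arrays. Cebpb (7.37 and 7.35 on the first exposed array, 10.05 and 10.04 on the second, 10.11 to 10.45 in control) and Irs2 followed that array too.

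The receptors themselves, Nr3c1 (glucocorticoid, -0.04) and Nr3c2 (mineralocorticoid, -0.05), were near 0. Of 15 receptor and steroid enzyme genes, 0 passed, 8 were higher, and the median was 0.07. Beside Cyp11b1, its neighbour in sequence Cyp11b2, aldosterone synthase, was at 7.62, 7.43, 7.62 and 7.59 in control and at 7.99, 7.93, 7.83 and 7.73 in the exposed samples (log2 change 0.30, SE 0.09). Transcripts of this near-identical pair may not be told apart.

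Of the 21 p53 targets tested, Ccng1 alone passed; 16 were higher, and the median was 0.15. Bbc3, which encodes the death protein PUMA, was at 0.34 (SE 0.12), Mdm2, the ubiquitin ligase of p53, at 0.28 (SE 0.15) and Cdkn1a, the cell cycle inhibitor p21, at 0.15. Bax (0.01) and Zmat3 (-0.01) were near 0, and Tigar was at -0.32 (SE 0.14). No other member had a log2 change near that of Ccng1.

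Ketamine's own target, the NMDA receptor, had no member past the threshold. Of the 12 genes tested, 9 were higher, and the median was 0.29 (0.14 without the array of exposed replicates 1 and 2, and -0.03 without that of control replicates 1 and 2). Grin2c, the subunit of interneurons and astrocytes, was at 12.24, 12.13, 11.69 and 12.12 in control and at 12.72, 12.5, 12.42 and 12.57 in the exposed samples (log2 change 0.51, SE 0.18). Grin2a, which replaces Grin2b as the cortex matures, was at 10.55, 10.22, 10.52 and 10.78 in control and at 10.14, 10.26, 9.98 and 10.12 in the exposed samples (-0.39, SE 0.17). Grin2b was at -0.15, Grin1, the obligatory subunit, at 0.39, and the glycine transporter gene Slc6a9 at 0.34, all with overlapping groups.

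Of 18 AMPA receptor genes, 0 passed, 11 were higher, and the median was 0.08 (-0.01 without the array of control replicates 1 and 2). Of 20 GABA receptor genes, 0 passed, 11 were higher, the median was 0.01, and 0 had groups that did not overlap. Gabbr1, a subunit of the metabotropic GABA-B receptor, was at 11.53 and 11.46 in exposed replicates 1 and 2, in a damaged area, and at 13.54 and 13.45 in replicates 3 and 4, against 13.11 to 13.66 in control. Among 14 kainate and metabotropic glutamate receptor genes, Grm4, a presynaptic autoreceptor that lowers glutamate release, was at 12.23, 12.51, 12.45 and 12.67 in control and at 11.96, 12.18, 11.97 and 12.07 in the exposed samples (log2 change -0.42, SE 0.10, limma adjusted p = 0.174). Its difference from the betamethasone group was 0.26 (SE 0.10).

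In mTOR and eEF2 kinase signalling, 24 of 34 genes were higher, 0 passed, and the median was 0.15. Rheb, the GTPase that activates mTORC1, was at 12.69, 12.32, 12.89 and 12.76 in control and at 13.51, 13.27, 13.05 and 12.98 in the exposed samples (log2 change 0.54, SE 0.18). Eif4e, the cap-binding factor released by mTORC1, was at 0.41 (SE 0.13). The inhibitors of the pathway Nprl3 (0.30) and Tsc2 (0.29) were higher as well. Members of opposite roles thus shared a direction that 63.8% of all genes had. Mknk2, a kinase of eIF4E, was at -0.39 (SE 0.12). Mtor itself (0.03) and Rictor (0.02) were near 0, and Eef2k, which phosphorylates elongation factor 2, was at 0.22.

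Of 37 potassium and HCN channel genes, 0 passed. Kcnq3, a subunit of the M-current that limits repetitive firing and is mutated in neonatal epilepsy, was at 13.27, 13.39, 13.16 and 13.17 in control and at 12.66, 12.55, 12.3 and 12.44 in the exposed samples (log2 change -0.76, SE 0.18, limma adjusted p = 0.169). All exposed samples lay below control on both arrays. Kcnq3 had 2 probes, these values are of the brighter, and the other is not reported here. Kcnj6, a G-protein-gated inward rectifier gene, was at 10.17, 10.03, 9.89 and 9.94 in control and at 8.93, 8.95, 9.56 and 9.71 in the exposed samples (-0.72, SE 0.22). Kcnh3 (0.57, SE 0.18) and Kcnip1 (0.36, SE 0.11) were higher. Of 24 sodium and calcium channel genes, 0 passed, and Scn2a, the sodium channel of the axon initial segment in young neurons, was at -0.33 (SE 0.13).

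At the synapse, 0 of 53 vesicle and release genes and 0 of 35 postsynaptic genes passed, with medians of 0.03 and 0.07. Napb, an adaptor that recycles SNARE complexes, was at 9.25, 9.36, 9.48 and 9.69 in control and at 8.78, 8.92, 8.9 and 8.68 in the exposed samples (log2 change -0.63, SE 0.16). Dlg3, the scaffold SAP102 that carries NMDA receptors in young synapses, was at 10.55, 10.18, 10.41 and 10.59 in control and at 10.86, 10.9, 10.96 and 10.93 in the exposed samples (0.48, SE 0.14). Dnm1, the GTPase of vesicle scission, was at 2.17 (SE 0.63), with controls at 11.16, 9.75 and 8.27 and no value for the fourth.

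In glycolysis and pyruvate metabolism, 23 of 33 genes were higher (63.8% of all genes were), Glo1 passed, and the median was 0.08. Beside Pdk1, its relative Pdk2 was at 11.19, 11.23, 11.25 and 11.54 in control and at 12.49, 12.55, 11.93 and 12.12 in the exposed samples (log2 change 0.97, SE 0.24, limma adjusted p = 0.181). Slc16a1, the monocarboxylate transporter of the blood-brain barrier, was at 10.37, 9.99, 9.89 and 9.71 in control and at 10.73, 10.62, 10.73 and 10.82 in the exposed samples (0.73, SE 0.17). In ubiquinone synthesis and the respiratory chain, 34 of 57 genes were higher, Coq7 passed, and the median was 0.03. Coq6 (0.40), Pdss2 (0.36) and Coq10a (0.48) had an unadjusted p under 0.05 as Coq7 did, while Coq8b (-0.30) and Coq9 (-0.09) were lower. Of 27 genes of cholesterol synthesis and uptake, 0 passed, and Sc5d, a late desaturase of the pathway, was at 10.61, 10.2, 10.38 and 10.28 in control and at 11.36, 11.12, 11.28 and 11.28 in the exposed samples (0.89, SE 0.18, limma adjusted p = 0.117).

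The 4 remaining lists that hold a gene past the threshold had members in both directions, and 63.8% of all genes were higher. Beside Rgs12, the RGS family had Rgs14 at -0.47 (SE 0.13), Rgs7 at 0.44 (SE 0.14) and Rgs2 at -0.53 (SE 0.20), with 10 of 17 members higher. Among 31 inflammasome and cytokine genes, 20 were higher and Mefv fell; Casp4 (0.32), an inflammatory caspase gene, and Myd88 (0.40), the adaptor of Toll-like receptors, had all exposed samples above control, and Aim2 (-0.34), a sensor of cytosolic DNA, all below. Among 62 ubiquitin ligase genes, 42 were higher and Fbxo10 fell, with Fbxw11 at -0.45 (SE 0.13). Of 25 ESCRT genes, 16 were higher and Chmp4bl1 fell. Tsg101, an ESCRT-I subunit that binds ubiquitinated cargo, was at 8.67, 8.51, 8.58 and 8.51 in control and at 9.25, 9.22, 8.97 and 8.96 in the exposed samples (log2 change 0.53, SE 0.13, limma adjusted p = 0.174). Vps37a, of the same complex, was at 0.40 (SE 0.11), and Vps4a, the ATPase that takes ESCRT-III apart, at -0.38 (SE 0.17).

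No marker of the brain's cell types passed, and in bulk tissue fewer cells of a type and less RNA per cell cannot be told apart. Of 17 microglia markers, 12 were higher, 0 passed, and the median was 0.27. The groups did not overlap for 6 higher members (35.3%) and 1 lower one (5.88%), against 12.1% and 3.72% of all genes. Trem2, a lipid-sensing receptor, was at 10.85, 10.74, 10.82 and 10.78 in control and at 11.4, 11.34, 11.06 and 11.07 in the exposed samples (log2 change 0.42, SE 0.11, limma adjusted p = 0.183). C1qa, which tags synapses for removal, was at 0.55 (SE 0.16), and Tmem119, with a spot in a damaged area of the array of control replicates 3 and 4, at 0.50 (SE 0.18). Aif1 (0.02), Ptprc (0.02) and Tyrobp (-0.01), markers of the same cells, were near 0. The mean level of the 17 markers was 10.73 to 10.83 in control and 10.81 to 10.95 in the exposed samples.

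Of 17 astrocyte markers, 12 were higher, with a median of 0.18. Gfap, the intermediate filament of reactive astrocytes, was at 9.2, 8.81, 9.28 and 9.54 in control and at 10.04, 9.88, 9.91 and 9.78 in the exposed samples (log2 change 0.70, SE 0.25, limma adjusted p = 0.302), with a spot in a damaged area of the array of exposed replicates 1 and 2. Myelin genes had the lowest median of all 37 lists, -0.21, with 19 of 28 members lower and 0 passed. Under scaling on the 75th percentile that median was 0.00, against 0.17 for all genes. Plekhb1, the member with the smallest p, was at 12.15, 12.35, 11.55 and 11.54 in control and at 12.62, 12.62, 12.59 and 12.77 in the exposed samples (log2 change 0.75, SE 0.23, limma adjusted p = 0.247), all above control. Gal3st1, which makes the myelin lipid sulfatide, was at 0.27 (SE 0.17). Mag, an adhesion protein of the inner myelin wrap, was at 12.33, 12.92, 12.83 and 12.33 in control and at 10.84, 11.11, 11.74 and 12.28 in the exposed samples (-1.11, SE 0.41). Mag had 2 probes, and these values are of the brighter. Cldn11, the tight-junction protein of myelin, was at 8.6, 8.48, 10.07 and 10.44 in control, where replicates 3 and 4 lay in a damaged area, and at 8.2, 8.15, 8.41 and 8.33 in the exposed samples. Mbp, the main protein of compact myelin, was at -0.47, with an unadjusted p of 0.409 in limma.

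The 8 red blood cell genes had the highest median, 0.44, with 0 passed. Their mean level was 11.99 to 12.42 in control and 12.22 to 13.11 in the exposed samples, and their part in other results was not tested. Meningeal fibroblast markers had a median of -0.01, which was -0.21 without the array of exposed replicates 1 and 2 and 0.16 without that of replicates 3 and 4. Interneuron markers had a median of 0.02, and of 29 members 0 passed. Markers of striatum and septum, regions next to the dissected cortex, had a median of 0.02, and of the choroid plexus markers, Ttr had exposed values of 7.54, 7.58, 7.59 and 9.19.

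**Figure D5:**
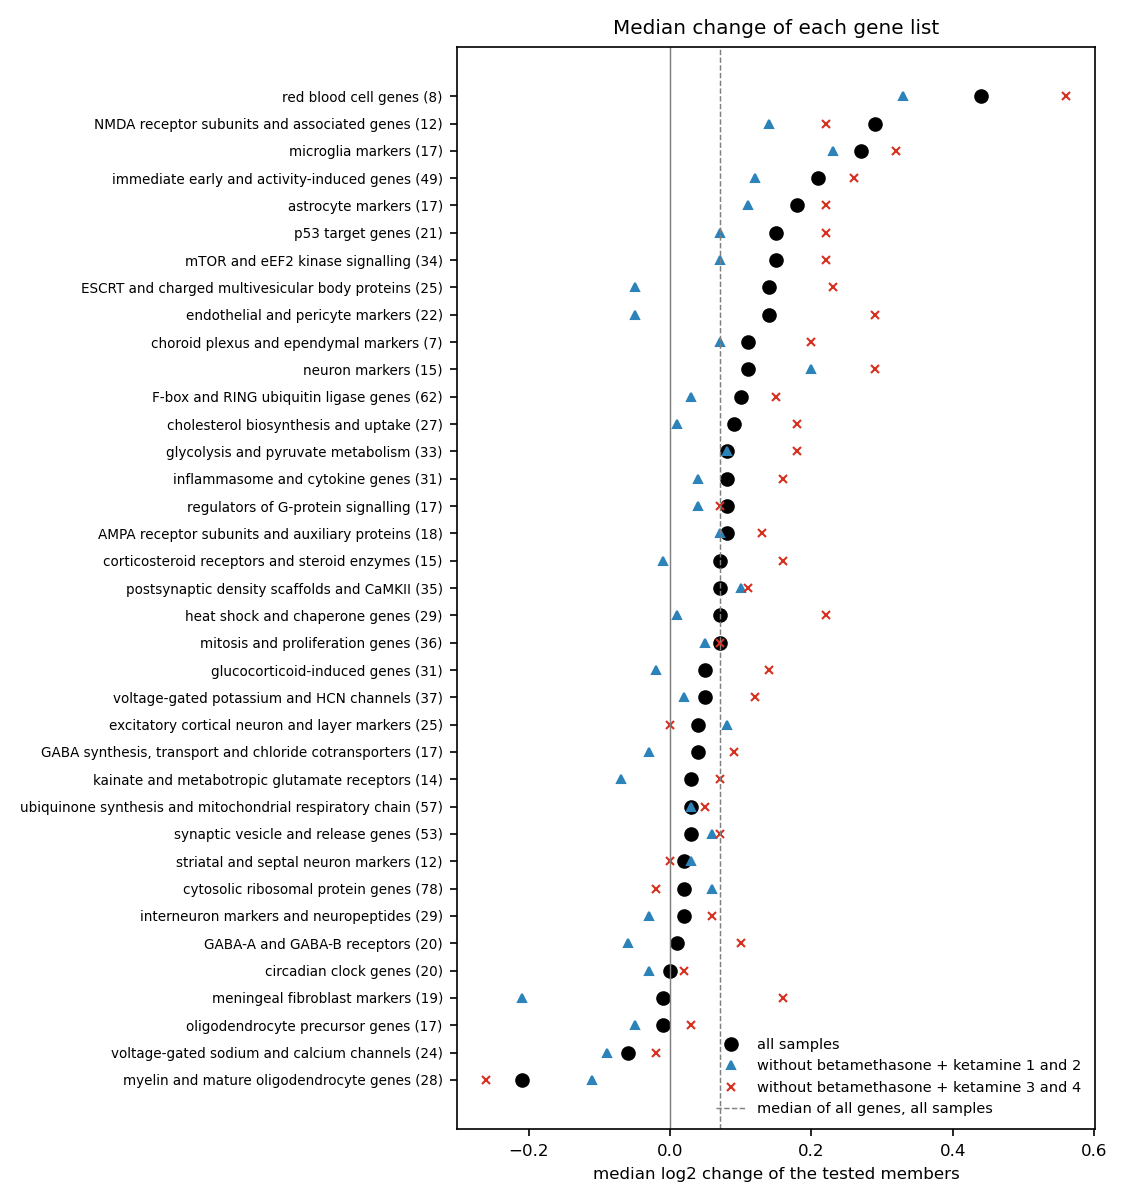
Median log2 change of the tested members of each of the 37 gene lists, betamethasone with ketamine minus control, with the number tested in brackets. Black points use all samples, triangles leave out the array of exposed replicates 1 and 2, crosses that of replicates 3 and 4, and the dashed line is the median of all genes, 0.07. Most medians lie within 0.2 of that line, and the crosses lie to the right of the triangles for most lists.

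The array of exposed replicates 1 and 2 differed from that of replicates 3 and 4 in both directions. Of 18678 genes, 12351 lay above the control mean on the first array and 10572 on the second. Higher on the first than on the second were 64.0% of all genes. Genes with a spot in a damaged area of the first array were frequent on the lower side. Of the 814 lower genes at an unadjusted p under 0.05, 400 (49.1%) had a spot in a damaged area of the array of exposed replicates 1 and 2, against 7.7% of all genes. Over 1 log2 unit below the control mean on that array, and less than 0.5 below it on the array of replicates 3 and 4, lay 496 genes, and 456 of them had such a spot. Genes in this class include Gap43, a growth cone protein (13.77 and 13.93 in exposed replicates 1 and 2, 16.32 and 16.19 in replicates 3 and 4, 16.35 to 16.68 in control), Dlx1, an interneuron transcription factor (log2 change -1.87), and Slco1c1, the thyroid hormone transporter of the blood-brain barrier (-1.66). Of the 17 features that passed, ENSRNOT00000052393 alone had a spot in such an area, and the other 16 all passed with damaged areas left out.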

How the data were processed

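Total RNA of the 12 samples was labelled and hybridised to 6 arrays, per the labels' protocols. The deposited scanner files hold intensity values per channel with local background, from Feature Extraction 11.5.1.1 (control slide) and 11.0.1.1 (other slide) per the file headers; the submitters' processing notes name Agilent Feature Extraction 10.7.3.1. A deposited value table holds a ratio per sample, (median signal minus median background) divided by the column median; it was used as an alternative only. In it, control columns 1 and 2 equal the scanner values filed as control 3 and 4, and vice versa, so control numbers are those of the scanner files.

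The mean signal was corrected by normexp (offset 50), normalised by loess and Aquantile, and averaged per probe on the log2 scale, computed from the deposited intensities. A probe was kept (21770 were) if some group had 3 or more samples well above background for it, with the brightest probe per gene (18678 genes). limma 3.58.1 (R 4.3.3) fitted all 12 samples with a dye term and the array as random block (correlation 0.563). The scripts were first tested on simulated data. At least 3 values per group were required, and 607 genes lacked a sample. Genes were named by 5 rules: passing; largest clean change (10 in each direction); agreeing probes; in each list, up to 5 smallest p and members an earlier text names; and genes that text names for the comparison. Members and lists were chosen with earlier results of these data known, and other genes named here were chosen after their values were seen. Replicate numbers did not pair the samples (correlation of deviations -0.07 to 0.09). The number of arrays, 2 per group, limits the precision. Values of some list members are not reported here.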

Additional observations from a re-analysis of the deposited data

Results flagged for a closer look

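For 52 named genes, both groups were checked, 104 in all, for a sample far from the other 3 of its group. In 4 of the 104 such a sample was found. Chance gives about 1 in 20 groups, so this count is not above that rate. For Foxp3, control replicate 3 was at 10.67, and the other controls lay between 8.89 and 9.14. For Cyp2b3, the same control sample was at 8.34, and the others lay between 7.71 and 7.8. Fam111a was at 7.44 in control replicate 2, below the 8.36 to 8.53 of the others. Setd5 was at 10.33 in exposed replicate 3, above the 9.87 to 9.91 of the others.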

How the results depend on the processing

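The count of 17 genes depended on the settings. It was 94 with the scanner's processed signals, 0 with scaling on the 75th percentile (146 at an unadjusted p under 0.05 in limma), 39 without a filter on dim probes, 770 without the array block, 1 on array means and 2 with only the 8 samples. On the deposited value table it was 5 with columns re-centred and, as an alternative chosen after seeing the data, 13435 without. It was 15 with quantile scaling, 18 with the mean of a gene's probes and 24 with damaged areas left out. Leaving out 1 sample gave 5 to 27. Without an array it was 204 (control replicates 1 and 2), 353 (control 3 and 4), 4 (betamethasone 1 and 2), 3 (betamethasone 3 and 4), 101 (betamethasone with ketamine 1 and 2) and 3098 (3 and 4); the cause was not tested. A replicate block, although the numbers did not pair the samples, gave 14. Over the other settings, 1495 fits of 52 named genes held 0 changes of direction, 172 lost calls and 97 gained ones. Most of these genes were named for a small p in the same data, many with groups that did not overlap. A change of direction was therefore unlikely from the start. On the value table without re-centring, where the median of all genes was -1.03, 7 of the 16 passing features tested kept their direction. Of 1073 list medians, 129 moved by more than the SD between the exposed samples.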
